A study of Mus musculus with 120 samples.

Results

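The genes described here are 32 genes of antioxidant defence, Nnt among them, read as the rows of these symbols in the expected count tables of both tissues. All 32 rows were present among the 53656 genes of each table, and all 32 had enough counts to be tested in each comparison. By the place where their products act they fell into 8 mitochondrial genes (Sod2, Prdx3, Txn2, Txnrd2, Glrx2, Glrx5, Nnt and Ucp2), 4 genes whose products act in mitochondria and cytosol (Gpx1, Gpx4, Prdx5 and Msra) and 11 cytosolic genes (Sod1, Prdx1, Prdx2, Prdx6, Txn1, Txnrd1, Gclc, Gclm, Nqo1, Srxn1 and Glrx). The rest were 4 genes of the endoplasmic reticulum (Hmox1, Prdx4, Gpx7 and Gpx8), 2 genes of secreted enzymes (Sod3 and Gpx3), the peroxisomal gene Cat and the regulators Nfe2l2 and Keap1.

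RNA was sequenced from soleus, a slow muscle of the lower leg, and from heart of 4 mouse strains, each exercised or non-exercised, with 6 libraries per strain, treatment and tissue (96 libraries in 16 groups). ANT1 mice (labelled ANT1-/-) lack Slc25a4, the heart and muscle isoform of the carrier that exchanges ADP and ATP across the inner mitochondrial membrane. ND5 mice (ND5S204F, m.12352C>T) and ND6 mice (ND6P25L, m.13997G>A) carry a changed subunit of complex I, and CO1 mice (CO1V421A, m.6589T>C) a changed subunit of complex IV, all encoded by mitochondrial DNA (mtDNA). All groups share the nuclear background C57BL/6Eij with an intact Nnt (Nnt+/+). Exercised mice ran for 45 min on every 2nd day at 50% of their maximal capacity for 8 weeks, starting at 16 weeks of age, and tissue was taken 6 days after the last session. Non-exercised mice were handled instead. The labels do not tie the deletion of Slc25a4 to any promoter or cell type. The B6 control strain was not analysed here, so no value below is a difference from wild type: ANT1 mice were set against the mean of the 3 mtDNA strains, and the mtDNA strains against each other.

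Mitochondria that respire leak electrons to oxygen and form superoxide. Superoxide dismutases turn it into hydrogen peroxide, which peroxiredoxins, glutathione peroxidases and catalase remove. Peroxiredoxins are recycled by thioredoxin and thioredoxin reductase, and glutathione peroxidases by glutathione, whose synthesis is limited by the enzyme of the subunits Gclc and Gclm. Both systems draw on NADPH. Nnt, the nicotinamide nucleotide transhydrogenase of the inner mitochondrial membrane, makes NADPH in the matrix from the proton gradient, and C57BL/6J mice lack a working copy. Nfe2l2 (NRF2) is the transcription factor that drives many cytosolic antioxidant genes by way of the antioxidant response element, and Keap1 holds it in check.

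To show which members carry the core letters of that element near their start, promoters of 250 bases before to 50 bases after the start were searched on both strands for TGACNNNGC, using RefSeq sequences of the build GRCm38.p6. A promoter was at hand for 26 of the 32 members and none for Gclc, Hmox1, Msra, Nnt, Prdx6 and Sod3. Of the 26 members, 7 held the motif (26.9%), as did 14% of the 27025 genes with a promoter and 12.4% of the 32851 promoters. The 7 stretches are shown 5′ to 3′ on the strand of the gene, with the motif, or its reverse complement, in capitals.
Prdx1: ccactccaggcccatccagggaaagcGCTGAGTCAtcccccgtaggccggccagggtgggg
Sod1: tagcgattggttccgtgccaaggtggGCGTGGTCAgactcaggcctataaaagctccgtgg
Gclm: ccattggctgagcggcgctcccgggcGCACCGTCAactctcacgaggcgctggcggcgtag
Srxn1: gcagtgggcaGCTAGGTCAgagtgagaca
Txnrd1: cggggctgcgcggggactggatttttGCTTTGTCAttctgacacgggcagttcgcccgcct
Ucp2: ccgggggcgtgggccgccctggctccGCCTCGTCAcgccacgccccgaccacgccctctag
Nfe2l2: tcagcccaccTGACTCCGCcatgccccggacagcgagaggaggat
They lie at chr4:116685440-116685500 on the plus strand (Prdx1), chr16:90220680-90220740 on the plus strand (Sod1), chr3:122245397-122245457 on the plus strand (Gclm), chr2:152105542-152105570 on the plus strand (Srxn1), chr10:82859088-82859148 on the plus strand (Txnrd1), chr7:100493266-100493326 on the plus strand (Ucp2) and chr2:75704869-75704913 on the minus strand (Nfe2l2). A match is a description of the letters and shows neither binding nor use of the site.

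Library totals were 10205693 to 20748897 counts in soleus and 19653349 to 26512272 counts in heart. Slc25a4 had 11, 13.9 and 22.1 CPM (counts scaled to a common library total; lowest, median and highest of 6) in non-exercised ANT1 soleus, against 2170, 3139 and 3603 CPM in the 18 libraries of the mtDNA strains, a log2 difference of -7.73 ± 0.19 (adjusted p = 1.05e-32). Every ANT1 library of both tissues was far below every library of the mtDNA strains for this gene, so Slc25a4 matched the genotype label in each. Throughout, ± is the standard error of the log2 difference, and adjusted p is from edgeR's quasi-likelihood test with Benjamini-Hochberg adjustment over all genes tested. A gene was called higher or lower at an adjusted p under 0.05. CPM were scaled by the trimmed mean of M-values (TMM), which sets the typical gene to the same level in all libraries. The scaling matters here. Transcripts of mtDNA made up 34% to 47.6% of the counts in ANT1 soleus, against 12.9% to 24.8% in soleus of the mtDNA strains. In heart that share was 21.6% to 39.4% in ANT1 mice, against 9.23% to 32.1% in the mtDNA strains. On the deposited FPKM (fragments scaled by transcript length and by the library's total), which carry no TMM factor, the median of all genes in ANT1 soleus lay 0.65 below the mtDNA strains (log2) in non-exercised and 0.54 below in exercised mice, and in heart 0.25 and 0.26 below. The direction and number of calls in ANT1 soleus therefore depend on the scale, and a value below is on counts unless FPKM is named. The part of the mtDNA share in the shift of the FPKM medians was not tested. The marker genes of the tissues were where the labels put them: heart muscle markers (Myh6, Tnni3, Tnnt2 and Mybpc3) summed to 22150 to 46315 CPM in 47 of 48 heart libraries and to 15.8 to 109.3 CPM in soleus. The exception was the ND5 non-exercised heart library of mouse B80, at 4004 CPM. The labels of B80 call the mouse exercised in soleus and non-exercised in heart.

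Gpx4, which removes lipid peroxides, and Sod1, the cytosolic superoxide dismutase, were the most abundant members per transcript length in both tissues. On the FPKM scale, Gpx4 had a median of 367 (311 to 519) over the 48 soleus libraries and 441 (225 to 545) in heart. Sod1 followed with 283 (205 to 443) in soleus and 352 in heart. In soleus the next members lay close together: Prdx1 and Prdx2 at 165 each, Prdx3 at 163, and Prdx5 and Txn2 at 161 each, which their ranges do not separate. Nnt was 8th in soleus at 130 (48.1 to 219) and also 8th in heart at 158 (12.9 to 226). The order closed with Gpx7, an oxidase of disulfide bonds in the endoplasmic reticulum, at 1.67 (0.3 to 9.17) in soleus and 4 in heart. In 48 heart libraries Gpx3, the plasma glutathione peroxidase, spanned 78.8 to 2524 around a median of 158, a wider span than that of Gpx4.

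**Figure D1:**
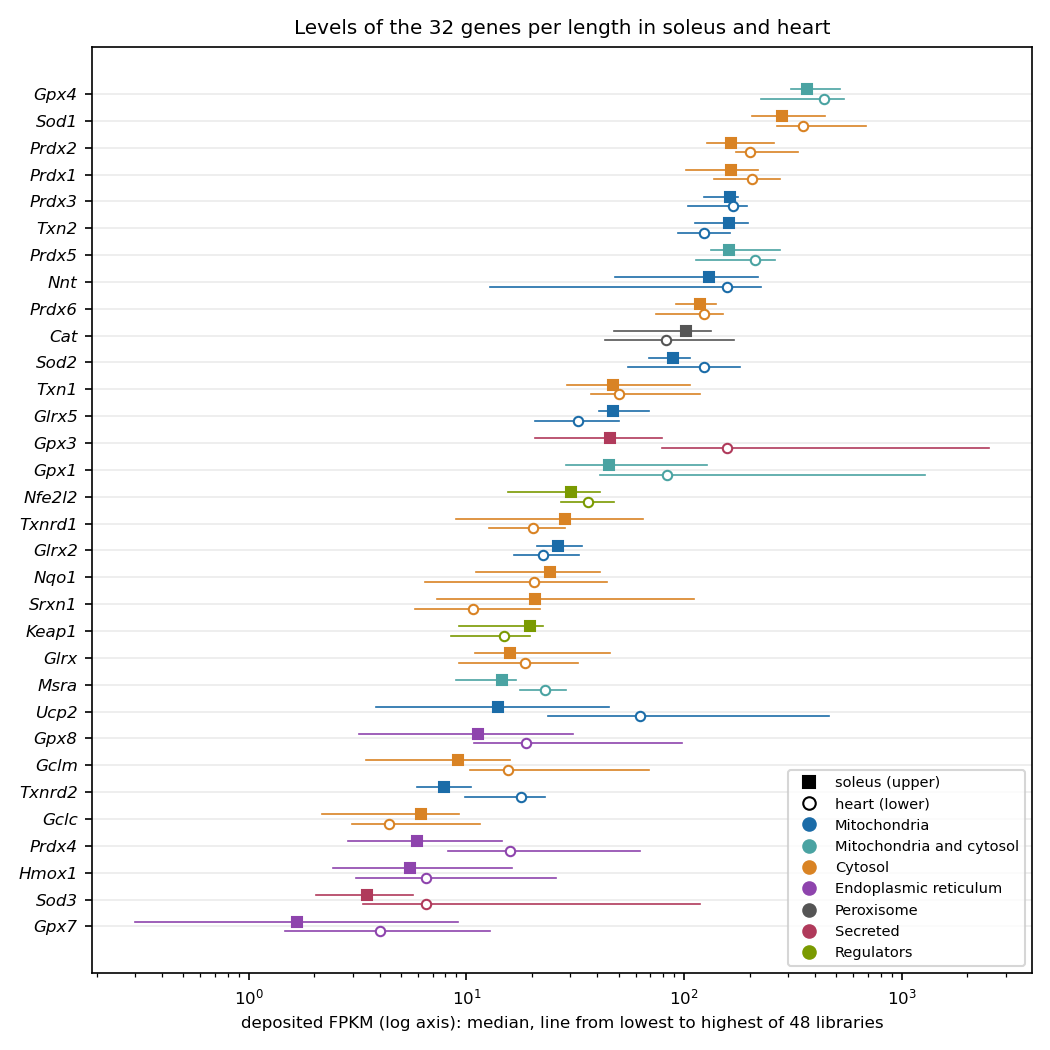
Levels of the 32 members in FPKM on a log axis, with the median and the range over the 48 libraries of each tissue, soleus and heart. Gpx4 and Sod1 lead both tissues, Gpx7 is lowest, and the ranges of Gpx3, Ucp2 and Nnt in heart are wide.

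In soleus of non-exercised mice, 15 of 32 members were called higher in ANT1 mice than in the mtDNA strains and 4 were called lower, where 22.4% of all 13935 tested genes were called higher and 25.4% lower. The members' median log2 difference was 0.25, against -0.04 over all genes. Higher calls were spread over the mitochondrial class (5 of 8, 1 lower, median 0.49), the genes of mitochondria and cytosol (4 of 4, median 0.49) and the cytosolic class (5 of 11, 1 lower, median -0.01). In the endoplasmic reticulum none of 4 was higher and 2 were lower (median -0.70). Of the secreted enzymes 1 of 2 was higher, and neither Cat nor the 2 regulators were called. All 19 calls held when any 1 of the 24 libraries was left out. These calls are relative to the typical gene of the library, and on the FPKM scale (limma) the split was the reverse: 3 members were called higher and 19 lower, where 2.54% of all genes were called higher and 80.6% lower. Of the 15 members higher on counts, 3 were called higher and 4 (Msra, Sod1, Prdx1 and Txn2) lower on FPKM, and 9 lay below 0 there. All 15 lay above the median of all genes on that scale.

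**Figure D2:**
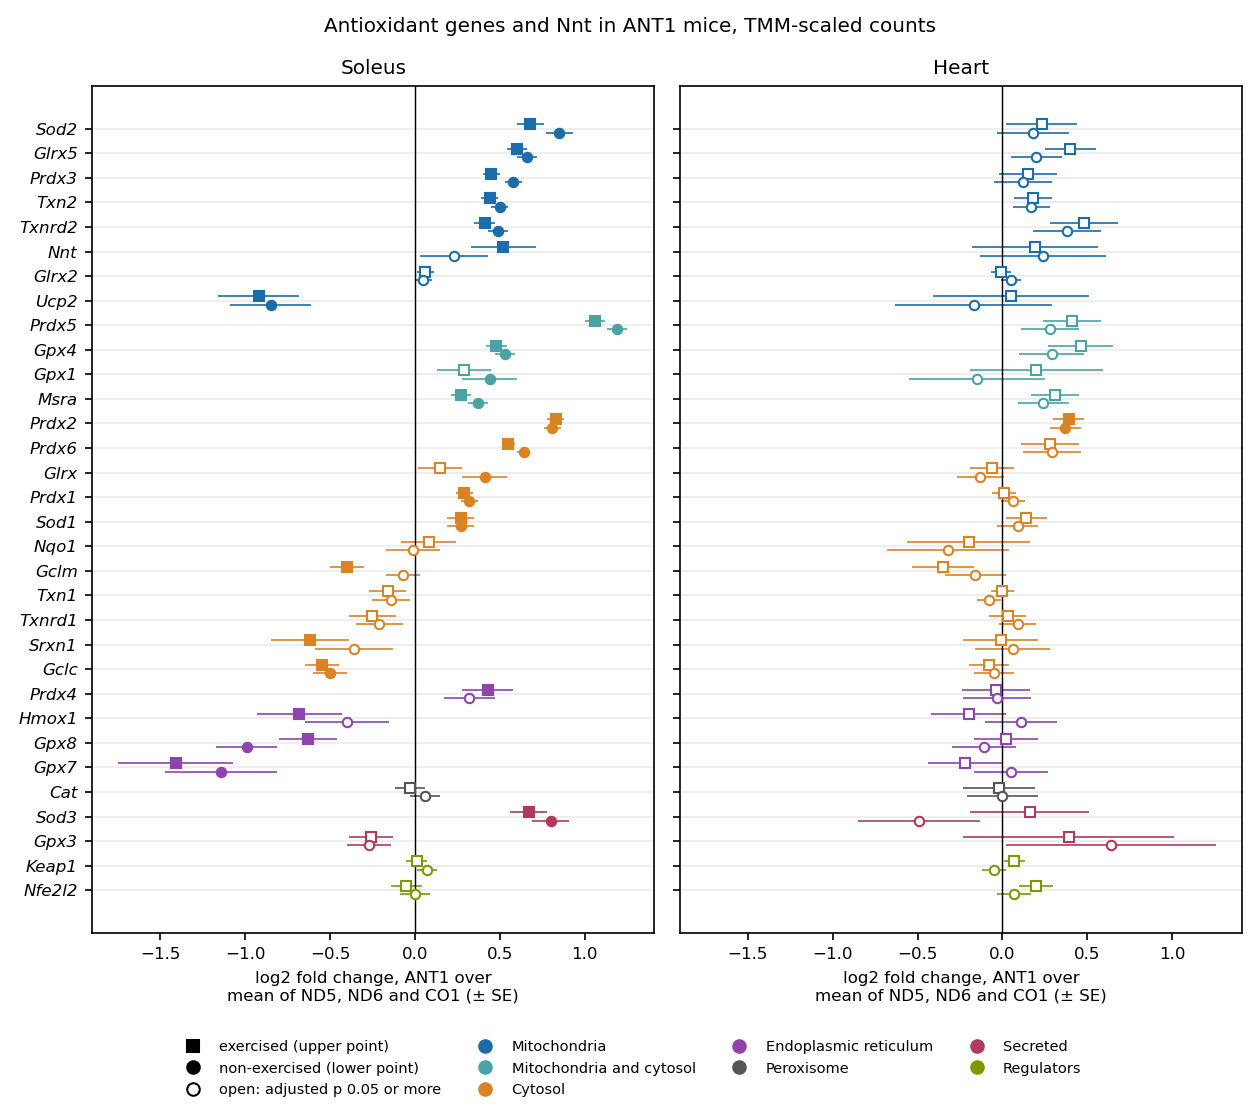
Log2 difference of ANT1 minus the mean of the 3 mtDNA strains for each of the 32 members by class, with its standard error, in exercised and non-exercised soleus and heart, on TMM-scaled counts. In soleus most mitochondrial and peroxiredoxin members lie above 0, up to 1.19 for Prdx5 (on FPKM 9 of the 15 higher non-exercised members lie below 0), and in heart Prdx2 alone was called, on counts and not on FPKM.

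Prdx5, a peroxiredoxin found in mitochondria, peroxisomes and cytosol, differed most among the higher members. It had 269.3, 312.9 and 363.0 CPM (lowest, median, highest) in non-exercised ANT1 soleus, against 122.2, 134.0 and 164.2 CPM in the mtDNA strains. The groups did not overlap, and the log2 difference was 1.19 ± 0.06 (adjusted p = 7.66e-20), with 0.57 on the FPKM scale, also called higher. Prdx2, an abundant cytosolic peroxiredoxin, had 259.6, 283.0 and 289.3 CPM in ANT1 soleus, against 141.7, 159.9 and 173.8 CPM in the mtDNA strains. These groups did not overlap either, at 0.81 ± 0.05 (adjusted p = 1.29e-18) and 0.26 on the FPKM scale, again called higher.

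Sod2, the manganese superoxide dismutase of the matrix, was the third member called higher on both scales. Its level was 436.1, 473.3 and 521.2 CPM in ANT1 soleus, against 181.3, 273.5 and 324.8 CPM in the mtDNA strains. No library of one side reached the other, and the log2 difference was 0.85 ± 0.08 (adjusted p = 6.11e-12), with 0.20 on the FPKM scale.

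The matrix thioredoxin chain was next. Prdx3, its peroxiredoxin, had 243.9, 256.9 and 281.1 CPM in ANT1 soleus, against 141.7, 179.8 and 193.4 CPM in the mtDNA strains. Txn2, the thioredoxin that reduces Prdx3, had 176.0, 196.2 and 214.5 CPM in ANT1 soleus, against 119.2, 140.4 and 151.9 CPM in the mtDNA strains. Txnrd2, the reductase of Txn2, had 12.8, 13.8 and 15.1 CPM in ANT1 soleus, against 6.96, 9.88 and 12.3 CPM in the mtDNA strains. In each of these 3 genes all ANT1 libraries lay above all others. On counts the log2 differences were 0.58 ± 0.05 for Prdx3 (adjusted p = 2.28e-14), 0.50 ± 0.05 for Txn2 (3.5e-12) and 0.49 ± 0.06 for Txnrd2 (1.45e-08), while on the FPKM scale they turned to -0.07, -0.15 and -0.13. Measured from the median of all genes on that scale they were 0.58, 0.50 and 0.52.

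Glrx5, a glutaredoxin of iron-sulfur cluster transfer in the matrix, had 77.7, 94.2 and 97 CPM in ANT1 soleus, against 45.4, 58.3 and 67.3 CPM in the mtDNA strains. The ranges were apart and the log2 difference was 0.66 ± 0.06 (adjusted p = 2.67e-12). Glrx2, the other mitochondrial glutaredoxin, was not called on counts, at 0.05 ± 0.05 (adjusted p = 0.424), and was called lower on FPKM at -0.29 (adjusted p = 0.000181). Prdx6, which reduces phospholipid peroxides, had 169.6, 182.1 and 196.8 CPM in ANT1 soleus, against 95.3, 119.0 and 126.7 CPM in the mtDNA strains, again without overlap, at 0.64 ± 0.04 (adjusted p = 2.71e-16). Gpx4 had 303.6, 327.7 and 387.3 CPM in ANT1 soleus, against 215.4, 234.5 and 257.8 CPM in the mtDNA strains, at 0.53 ± 0.06 on counts (adjusted p = 5.61e-11) and -0.11 on FPKM.

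**Figure D3:**
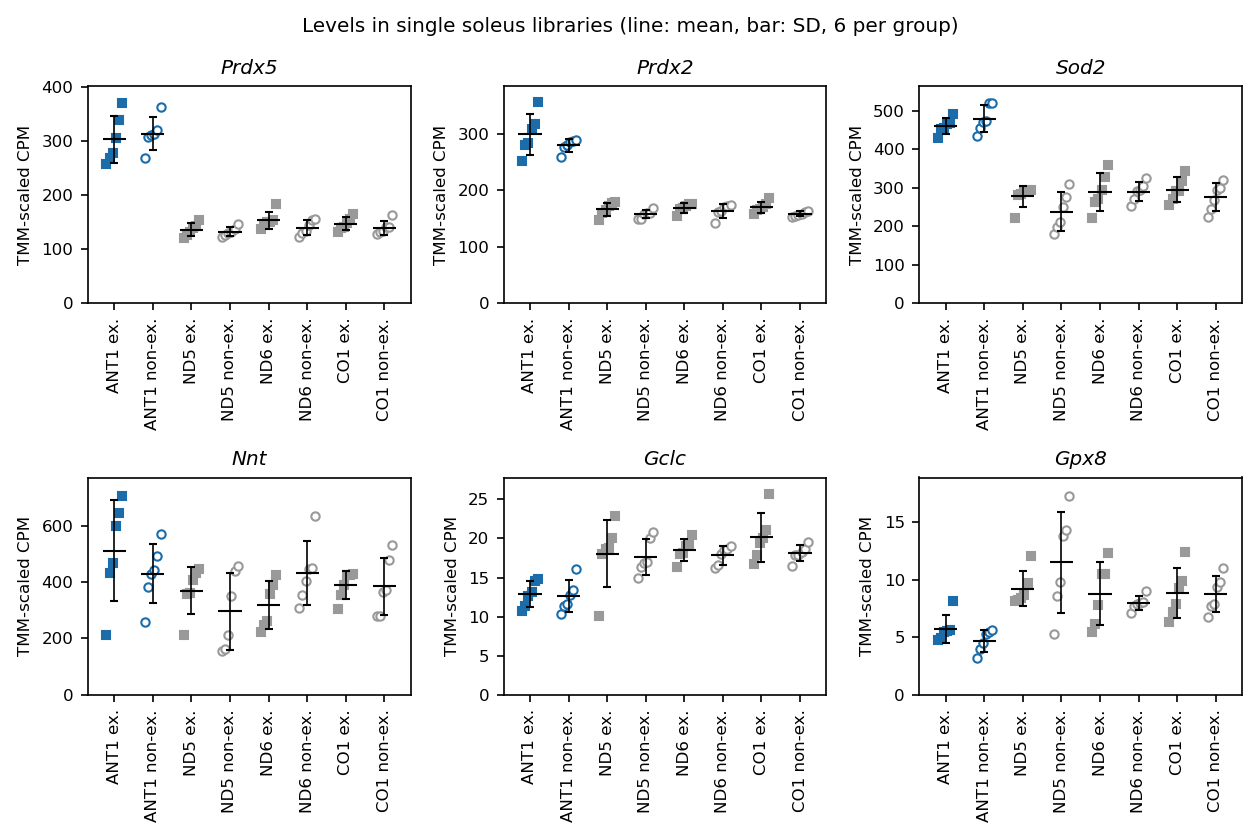
CPM of single soleus libraries for Prdx5, Prdx2, Sod2, Nnt, Gclc and Gpx8, in exercised and non-exercised mice of each strain, with ANT1 left of ND5, ND6 and CO1; lines are group means and bars the SD of 6 libraries. ANT1 libraries stand above all others for Prdx5, with a median of 312.9 CPM in non-exercised ANT1 mice, while Nnt overlaps between all groups, and its ANT1 difference turns to -0.35 and -0.07 on FPKM in non-exercised and exercised mice.

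The other higher members differed less. Prdx1, whose promoter holds the motif shown above, had 186.2, 199.1 and 212.4 CPM in ANT1 soleus, against 135.2, 159.8 and 178.5 CPM in the mtDNA strains, at 0.32 ± 0.05 on counts (adjusted p = 6.53e-07) and -0.35 on FPKM. Sod3, the extracellular superoxide dismutase, had 16.4, 18.3 and 20.8 CPM in ANT1 soleus, against 6.55, 10.9 and 16.2 CPM in the mtDNA strains, at 0.80 ± 0.11 (adjusted p = 7.8e-08). Both were free of overlap between the groups, and Sod3, like Glrx5 and Prdx6, lay between 0.01 and 0.15 on the FPKM scale. Glrx (0.41), Gpx1 (0.44), Msra (0.37) and Sod1 (0.27) were called higher on counts and lay at -0.25, -0.15, -0.24 and -0.40 on the FPKM scale.

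In all, 12 members had every ANT1 library above every library of the mtDNA strains: Prdx1, Prdx2, Prdx3, Prdx5, Prdx6, Sod2, Sod3, Gpx4, Msra, Txn2, Txnrd2 and Glrx5. None had every ANT1 library below. Over all genes, 6.62% were apart in this way with ANT1 above and 3.34% with ANT1 below.

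The 4 lower members were Gpx8, Gclc, Ucp2 and Gpx7, and they were called lower on the FPKM scale too, at -1.61, -1.12, -1.59 and -1.78, each below the median of all genes there. Gpx8, a peroxidase of the endoplasmic reticulum membrane, had 3.23, 4.93 and 5.61 CPM in ANT1 soleus, against 5.27, 8.33 and 17.3 CPM in the mtDNA strains, at -0.99 ± 0.18 (adjusted p = 1.13e-05). Gclc, the catalytic subunit of the first step of glutathione synthesis, had 10.3, 12.2 and 16.1 CPM in ANT1 soleus, against 14.9, 18 and 20.8 CPM in the mtDNA strains, at -0.50 ± 0.10 (adjusted p = 6.13e-05). In both genes the groups overlapped at their edges.

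Ucp2, a carrier of the inner mitochondrial membrane, had 8.4, 11.2 and 15.5 CPM in ANT1 soleus, against 8.19, 18.6 and 43.3 CPM in the mtDNA strains, at -0.85 ± 0.24 (adjusted p = 0.00302). Gpx7 had 0.422, 0.923 and 1.97 CPM in ANT1 soleus, against 0.939, 1.76 and 6.96 CPM in the mtDNA strains, at -1.14 ± 0.33 (adjusted p = 0.00373). The wide spread of both came from the mtDNA strains, where the highest values were ND5 libraries.

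The other 11 uncalled members, beside Glrx2 and Nnt, lay between -0.40 (Hmox1, heme oxygenase 1) and 0.32 (Prdx4). Nfe2l2 differed by 0.00 ± 0.09 and Keap1 by 0.07 ± 0.06 on counts. Nfe2l2 had 52.8, 63.7 and 68.7 CPM in ANT1 soleus, against 48.3, 61.5 and 78.6 CPM in the mtDNA strains, and Keap1 had 44.2, 57.7 and 59.8 CPM in ANT1 soleus, against 43, 51.6 and 62.1 CPM in the mtDNA strains. On FPKM both were called lower, at -0.63 for Nfe2l2 (adjusted p = 1.36e-07) and -0.58 for Keap1 (adjusted p = 2.52e-09), close to the median of all genes. Of the usual NRF2 targets, Gclc was called lower on both scales, as given above. Nqo1 (-0.01), Gclm (-0.07), Txnrd1 (-0.21), Srxn1 (-0.36) and Hmox1 (-0.40) were not called on counts in non-exercised mice. On FPKM these 5 were called lower, from -0.65 for Nqo1 (adjusted p = 0.000382), which is the median of all genes, to -1.10 for Srxn1 (adjusted p = 7.24e-06). Of the 7 members with the motif, Prdx1 and Sod1 were thus higher on counts (both below 0 on FPKM), Ucp2 was lower and 4 were not called on counts.

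Nnt had a wide spread within each soleus group. In non-exercised soleus its level was 259.0, 435.8 and 571.6 CPM in ANT1 mice, against 154.0, 282.4 and 456.7 CPM in ND5, 307.7, 425.0 and 636.8 CPM in ND6 and 281.2, 368.7 and 531.4 CPM in CO1. In exercised soleus it was 213.3, 533.9 and 707.4 CPM in ANT1 mice, against 213.5, 384.3 and 445.5 CPM in ND5, 223.0, 311.1 and 425.0 CPM in ND6 and 305.2, 407.6 and 429.1 CPM in CO1. All groups overlapped. ANT1 exceeded the mtDNA strains by 0.23 ± 0.20 in non-exercised mice (adjusted p = 0.349) and by 0.52 ± 0.19 in exercised mice (adjusted p = 0.0277). Its non-exercised difference was -0.35 on the FPKM scale. The exercised call lay at -0.07 on the FPKM scale, which is 0.47 above the median of all genes there.

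The exercised Nnt call was lost without mouse A13, A76 or A17, with an adjusted p of up to 0.119 and a log2 difference of 0.40 to 0.68 over all 24 omissions. The within-group standard deviation of Nnt in soleus was 0.46 on the log2 scale, against 0.09 for Prdx3 and Prdx6. Nnt lies at chr13:119335527-119409257 (GRCm38.p6), on another chromosome than Slc25a4 (chr8:46207168-46211062), which shares its chromosome with the members Hmox1, Prdx2 and Nqo1, at distances of 28.9, 38.8 and 61.2 Mb.

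**Figure D4:**
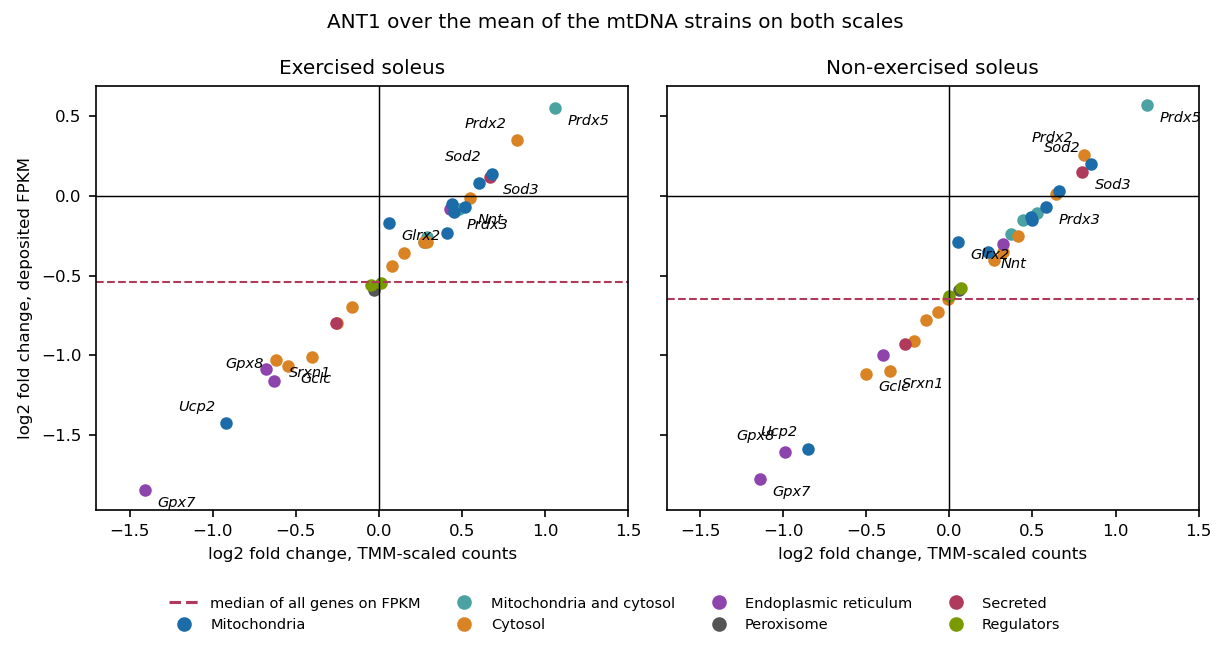
Log2 difference of ANT1 minus the mtDNA strains in soleus for each member, on TMM-scaled counts (x axis) and on deposited FPKM (y axis), exercised and non-exercised, with lines at 0 and at the FPKM median of all genes (-0.54 and -0.65). The FPKM values are shifted down, so that 9 of the 15 members called higher in non-exercised mice lie below 0 there and all 15 above the median of all genes.

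A library's scaling factor cancels from the ratio of a mitochondrial member to its cytosolic counterpart in the same library, though counts and FPKM can still give different ratios. Sod2 over Sod1, in FPKM, was 0.34, 0.425 and 0.467 (lowest, median, highest) in non-exercised ANT1 soleus, against 0.198, 0.265 and 0.365 in the mtDNA strains. Txn2 over Txn1 was 3.64, 4.97 and 5.21 in ANT1 soleus, against 1.84, 3.14 and 4.5 in the mtDNA strains. Txnrd2 over Txnrd1 was 0.346, 0.442 and 0.809 in ANT1 soleus, against 0.193, 0.269 and 0.455 in the mtDNA strains. These 3 medians were higher in ANT1 soleus, and in each pair the ranges overlapped.

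The peroxiredoxins differed from this pattern. Prdx3 over Prdx1 was 1.08, 1.17 and 1.21 in ANT1 soleus, against 0.725, 0.953 and 1.16 in the mtDNA strains, but Prdx3 over Prdx2 had the lower median in ANT1 soleus, at 0.668, 0.798 and 0.913, against 0.668, 1.02 and 1.27 in the mtDNA strains. Prdx5 over Prdx3, both found in mitochondria, was 1.29, 1.47 and 1.94 in ANT1 soleus, against 0.823, 0.972 and 1.12 in the mtDNA strains, with no overlap. Exercised mice gave 1.3, 1.45 and 1.82 in ANT1 soleus for that pair, against 0.834, 0.946 and 1.1 in the mtDNA strains. For the glutaredoxins, Glrx5 over Glrx was 2.57, 3.84 and 4.33 in ANT1 soleus, against 2.4, 3 and 3.99 in the mtDNA strains, and Glrx2 over Glrx was 1.44, 1.68 and 1.85 in ANT1 soleus, against 1.35, 1.75 and 2.28 in the mtDNA strains, with wide overlap in both. The pair Glrx2 and Glrx differed between the scales: the ANT1 differences were 0.05 for Glrx2 and 0.41 for Glrx on counts, and -0.29 and -0.25 on FPKM. These ratios are given as a description, without a test.

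In exercised soleus 15 members were again called higher in ANT1 mice and 7 lower, where 21.1% of all genes were called higher and 22.4% lower. The members' median was 0.21, against -0.02 over all genes. The leading members were those of non-exercised mice: Prdx2 at 0.83 ± 0.05 (adjusted p = 8.57e-19), Prdx5 at 1.06 ± 0.06 (4.55e-18), Prdx6 at 0.55 ± 0.04 (6.15e-14), Glrx5 at 0.60 ± 0.06 (4.88e-11), Prdx3 at 0.45 ± 0.05 (6.25e-11) and Txn2 at 0.44 ± 0.05 (1.91e-10). On the FPKM scale Prdx5 (0.55) and Prdx2 (0.35) were called higher as well, Prdx6, Prdx3 and Txn2 were at -0.01, -0.10 and -0.05, and 10 of the 15 lay below 0, all 15 being above the median of all genes. In all, 2 members were called higher and 21 lower on FPKM, where 2.76% of all genes were called higher and 74.8% lower, and 5 of the 15 (Msra, Sod1, Prdx1, Prdx3 and Txnrd2) were among those called lower.

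Prdx5 had 258.8, 292.8 and 371.0 CPM in exercised ANT1 soleus, against 120.6, 144.5 and 183.2 CPM in the mtDNA strains. Prdx2 had 251.9, 296.0 and 356.1 CPM in exercised ANT1 soleus, against 148.0, 169.8 and 186.7 CPM in the mtDNA strains. Neither gene overlapped between the groups, and 10 of 32 members were apart in this way with ANT1 above, where 5.19% of all genes were. These were the 12 of non-exercised mice without Msra and Sod3. None was apart with ANT1 below, where 3.36% of all genes were.

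By class, 6 of 8 mitochondrial members were higher in exercised ANT1 soleus and 1 lower (median 0.44), 3 of 4 in mitochondria and cytosol (median 0.38), and 4 of 11 cytosolic members were higher and 3 lower (median 0.08). In the endoplasmic reticulum 1 of 4 was higher and 3 lower (median -0.66). Prdx4, the peroxiredoxin of the secretory pathway, was called higher at 0.43 ± 0.15 (adjusted p = 0.0167), with -0.08 on FPKM.

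The lower calls in exercised mice were 7 of 32 members, where 22.4% of all genes were called lower. They included both subunits of glutathione synthesis and the NRF2 targets Srxn1 and Hmox1, but not the NRF2 targets Nqo1 and Txnrd1. Gclc had 10.7, 13 and 14.8 CPM in exercised ANT1 soleus, against 10.1, 18.9 and 25.7 CPM in the mtDNA strains, at -0.55 ± 0.10 (adjusted p = 1.37e-05). Gclm, the modifier subunit of the same enzyme, had 11.3, 13 and 14.8 CPM in exercised ANT1 soleus, against 11.4, 18 and 20.9 CPM in the mtDNA strains, at -0.40 ± 0.10 (adjusted p = 0.00143). Both groups of each gene overlapped. Gclm did not pass the test of a difference in training effect between the strains (adjusted p = 0.747), so the ANT1 difference is not shown to depend on exercise.

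Srxn1, sulfiredoxin, which repairs over-oxidised peroxiredoxins, had 28.5, 34.9 and 54.9 CPM in exercised ANT1 soleus, against 32.1, 49.6 and 252.7 CPM in the mtDNA strains, at -0.62 ± 0.23 (adjusted p = 0.0281). The top value was that of mouse B69, without which the log2 difference was -0.39, and the call was lost without A81, A76 or A17 (adjusted p up to 0.0748). Hmox1 had 4.5, 5.61 and 7.84 CPM in exercised ANT1 soleus, against 4.52, 8.07 and 18.7 CPM in the mtDNA strains, at -0.68 ± 0.25 (adjusted p = 0.0265), a call lost without A81, A43 or A17 (up to 0.07). Gpx7 (-1.41 ± 0.34, adjusted p = 0.000633), Ucp2 (-0.92 ± 0.24, 0.0018) and Gpx8 (-0.63 ± 0.17, 0.00237) were called lower as in non-exercised mice. All 7 lower members were called lower on FPKM as well, between -1.01 (Gclm) and -1.85 (Gpx7), below the median of all genes there, and 19 of the 22 calls held without any 1 library.

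Set against each mtDNA strain alone, the same 12 members that were free of overlap in non-exercised soleus were called higher in ANT1 against all 3 strains, in non-exercised and in exercised mice, where 12.9% of all genes met this in each (on FPKM 6 of these 12 lay below 0 in the comparison with all 3 strains in non-exercised mice). The 3 comparisons share the ANT1 libraries. In non-exercised mice Gclc and Gpx8 were lower against all 3, where 10.9% of all genes were. In exercised mice Gclc, Gclm, Gpx7, Gpx8 and Ucp2 were, where 11.6% of all genes were. Prdx5 differed by 1.24 against ND5, 1.17 against ND6 and 1.17 against CO1 in non-exercised mice, and Sod2 by 1.01, 0.73 and 0.80. Against single strains the lower members were less even: Gpx7 was at -1.91 against ND5, -0.63 against ND6 (adjusted p = 0.217) and -0.88 against CO1 (0.0649), and Ucp2 at -1.43, -0.40 (0.295) and -0.73. Nnt was at 0.54 against ND5 (0.0643), -0.01 against ND6 and 0.16 against CO1.

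Among 12 genes of NADPH supply, 5 were called higher in non-exercised ANT1 soleus and 1 lower (median 0.12). Idh2, the mitochondrial isocitrate dehydrogenase that makes NADPH, was at 0.63 ± 0.08 (adjusted p = 1.21e-08), Me3, mitochondrial malic enzyme, at 0.49 and Idh1, the cytosolic isocitrate dehydrogenase, at 0.52, while Me1, cytosolic malic enzyme, was at -0.32 ± 0.07 (adjusted p = 0.000234). Of 25 further glutathione and thioredoxin genes tested, 13 were higher and 5 lower (median 0.20). Msrb2, the mitochondrial methionine sulfoxide reductase, led at 0.97 ± 0.10 (adjusted p = 6.18e-11), followed by Gstm5 at 0.49 and Msrb1 at 0.54. Nxn, nucleoredoxin, was at -0.75 ± 0.07 (adjusted p = 2.61e-12), Gsr, the glutathione reductase of cytosol and mitochondria, at -0.97 ± 0.09 (adjusted p = 5.49e-12) and Sesn3, a sestrin, at -0.88 ± 0.11 (adjusted p = 3.7e-09). Gsr lies on the chromosome of Slc25a4, 12.5 Mb away.

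Of 12 further NRF2-linked genes tested, 3 were higher and 2 lower (median -0.04): Fth1, ferritin heavy chain, at 0.57 ± 0.06 (adjusted p = 9.77e-12), Blvra, biliverdin reductase, at 0.66 and Aox1 at 0.55, against Ephx1 at -0.55 and Abcc1 at -0.43. Of 10 genes of superoxide and peroxide sources, 2 were higher, Maob, a monoamine oxidase of the outer mitochondrial membrane, at 0.73 ± 0.11 (adjusted p = 1.99e-07) and Romo1 at 0.40, and 6 lower (median -0.41), among them Shc1 at -0.39, Nox4 at -1.10 and Cybb, the NADPH oxidase of phagocytes, at -1.19 (adjusted p = 0.00259). In exercised soleus the counts were 5 higher and 1 lower of NADPH supply, 10 and 7 of the glutathione and thioredoxin genes, 4 and 3 of the NRF2-linked genes and 2 and 5 of the sources. On the FPKM scale, looked at after the data were seen, the split was the reverse in non-exercised soleus, except for the sources, which were mostly lower on both scales. There, 0 genes were called higher and 8 lower of NADPH supply, 2 and 19 of the glutathione and thioredoxin genes, 0 and 8 of the NRF2-linked genes and 0 and 8 of the sources. Their medians there were -0.51, -0.48, -0.68 and -1.0, against -0.65 over all genes. In exercised soleus the FPKM calls were 1 higher and 6 lower, 1 and 16, 0 and 6, and 0 and 7 in the same order. Of the genes named, Msrb2 (0.34) and Maob (0.08) stayed above 0, while Idh2 (-0.03), Idh1 (-0.15), Me3 (-0.13), Gstm5 (-0.18), Msrb1 (-0.11), Fth1 (-0.09), Blvra (-0.02), Aox1 (-0.12) and Romo1 (-0.31) lay below it and above the median of all genes.

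Markers of other cells moved with the same comparison. All 5 tested markers of red cells were higher in non-exercised ANT1 soleus (none called on FPKM, where their median was 0.16), with summed levels of 262, 460 and 627 CPM (lowest, median, highest), against 162, 244 and 433 CPM in the mtDNA strains. Of 8 fibroblast and matrix markers 7 were lower, at 297, 389 and 711 CPM in sum in ANT1 soleus, against 448, 1112 and 4825 CPM in the mtDNA strains. Of 8 macrophage markers 6 were lower, at 20.3, 39.8 and 64.1 CPM in ANT1 soleus, against 18.9, 68.2 and 176 CPM in the mtDNA strains. In exercised mice 4 red cell markers were higher, at 358, 467 and 556 CPM in sum in ANT1 soleus, against 121, 312 and 590 CPM in the mtDNA strains. Of 8 fibroblast markers 7 were lower, at 340, 401 and 526 CPM in ANT1 soleus, against 462, 1066 and 3193 CPM in the mtDNA strains, and 8 of 8 macrophage markers were lower, at 26.3, 37.2 and 39.3 CPM in ANT1 soleus, against 42.5, 73.4 and 104 CPM in the mtDNA strains. The single tested marker of brown adipocytes, Cidea, was higher at 1.08 ± 0.11 (adjusted p = 5.4e-11; 0.42 on FPKM, also called). The sum of the 3 listed brown adipocyte markers was 11.5, 14.2 and 15.8 CPM in non-exercised ANT1 soleus, against 5.52, 6.29 and 8.1 CPM in the mtDNA strains, without overlap, and 8.82, 13.3 and 16.7 CPM in exercised ANT1 soleus, against 4.84, 7.53 and 10.8 CPM in the mtDNA strains, with overlap. Both tested genes of the atrial list were lower on both scales, with Sln, sarcolipin, which skeletal muscle makes as well, at -4.36 ± 0.44 (adjusted p = 2.53e-11) and Myl4 at -2.19 ± 0.68 (adjusted p = 0.00767). The sum of that list was 9.77, 15.4 and 20.4 CPM in non-exercised ANT1 soleus, against 49.8, 122 and 622 CPM in the mtDNA strains, and 11.4, 14.1 and 16 CPM in exercised ANT1 soleus, against 42.6, 128 and 498 CPM in the mtDNA strains, in both cases without overlap. Fibre type markers differed too: of 6 fast fibre markers 2 were higher and 3 lower in non-exercised ANT1 soleus, and of 4 slow fibre markers 3 were lower. The fast fibre sum was 11334, 15448 and 21488 CPM in ANT1 soleus, against 11624 to 20351 CPM in the mtDNA strains, with overlap. On FPKM all 6 fast fibre markers (median -3.96) and all 4 slow fibre markers (median -0.93) were called lower, with 2 and 1 of them above the median of all genes, -0.65. Prdx2, Gpx1 and Cat are abundant in red cells, and Gpx7, Gpx8 and Ucp2 are also made outside muscle fibres. The part of these cells in the members' differences was not tested, and in bulk RNA fewer cells of a type and less RNA per cell cannot be told apart.

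In heart, Prdx2 was the only member called on counts between ANT1 mice and the mtDNA strains, in non-exercised as in exercised mice, and it was not called on FPKM. It had 220.2, 288.0 and 320.0 CPM in non-exercised ANT1 heart, against 144.3, 221.1 and 248.6 CPM in the mtDNA strains, and 219.4, 273.5 and 296.1 CPM in exercised ANT1 heart, against 151.6, 210.2 and 257.1 CPM in the mtDNA strains. The groups overlapped, and the log2 differences were 0.37 ± 0.09 (adjusted p = 0.016) and 0.39 ± 0.09 (adjusted p = 0.00569). Over all genes 0.617% were called higher and 0.299% lower in non-exercised heart, and 3.45% and 1.32% in exercised heart. Without library B80 the non-exercised difference was 0.34 (adjusted p = 0.029), and it was not called without A72, A23 or A70 (adjusted p up to 0.105). The exercised call held without any 1 library. The Prdx2 differences on FPKM were 0.10 in non-exercised (adjusted p = 0.39) and 0.12 in exercised heart (adjusted p = 0.326), which are 0.35 and 0.38 above the median of all genes. The members called there were lower ones: Txn1 at -0.36 (adjusted p = 0.0407) and Keap1 at -0.34 (0.029) in non-exercised heart, where 0.293% of all genes were called higher and 8.19% lower, and Prdx1 at -0.28 (0.0197) in exercised heart, where 0.305% were called higher and 11.1% lower.

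Red cell markers in heart were spread over a wide range, with summed levels of 2838, 15341 and 24027 CPM in non-exercised ANT1 heart, against 1921 to 131944 CPM in the mtDNA strains. By strain, the non-exercised medians behind that range were 2511 CPM (CO1), 8442 CPM (ND5) and 10585 CPM (ND6), all below the ANT1 median. The exercised ANT1 median, 6928 CPM, was also the highest, with 3030 CPM for CO1, 4485 CPM for ND6 and 5326 CPM for ND5. On counts no marker list had a called gene between ANT1 and the mtDNA strains in heart. With so wide a range, the missing call does not show that red cell levels were equal. The part of red cells in the Prdx2 difference of heart was not tested. The next members in exercised heart were Glrx5 at 0.40 ± 0.15 (adjusted p = 0.102) and Prdx5 at 0.41 ± 0.17 (adjusted p = 0.157), neither called. Nnt was at 0.24 ± 0.37 in non-exercised (0.14 without B80) and 0.19 ± 0.37 in exercised heart (adjusted p = 0.845 and 0.835). No member had all ANT1 heart libraries above or below all others, where 0.102% and 0.0763% of all genes did in non-exercised mice and 0.0827% and 0.127% in exercised mice, and no member was called against each of the 3 strains. Gsr was lower in heart as in soleus, at -0.72 ± 0.10 in non-exercised (adjusted p = 8.45e-06) and -0.65 ± 0.10 in exercised mice (adjusted p = 6.03e-05), and Me2, mitochondrial malic enzyme, was higher in non-exercised heart at 0.49 ± 0.11 (adjusted p = 0.0112). The other lists gave no further call in heart on counts.

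Heart libraries differed in their level of atrial transcripts, as described further on. A covariate was formed as the mean log2 CPM of 4 atrial markers, each centred on its own mean, so that all weigh the same. With it, 3 members were called higher in non-exercised ANT1 heart, where 3.11% of all genes were called higher and 1.13% lower: Prdx2 at 0.39 ± 0.08 (adjusted p = 0.00137), Txnrd2 at 0.48 ± 0.13 (0.0282) and Prdx6 at 0.38 ± 0.11 (0.042). In exercised heart 5 were, where 6.14% of all genes were called higher and 2.81% lower: Prdx2 at 0.39 ± 0.08 (0.00129), Gpx4 at 0.42 ± 0.12 (0.0183), Glrx5 at 0.37 ± 0.11 (0.021), Txnrd2 at 0.42 ± 0.13 (0.0363) and Prdx5 at 0.39 ± 0.13 (0.0408).

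The difference between tissues was tested itself, as the ANT1 difference in non-exercised soleus minus that in heart. Of the 32 members 8 were called with the larger difference in soleus and 2 with the more negative one, where 5.53% and 5.58% of all genes were. Prdx5 differed by 0.95 ± 0.19 (adjusted p = 0.000274), Prdx2 by 0.47 ± 0.10 (0.000574), Prdx1 by 0.29 ± 0.08 (0.0136), Sod3 by 1.32 ± 0.38 (0.0154), Glrx5 by 0.50 ± 0.16 (0.0337) and Txn2 by 0.36 ± 0.12 (0.0362). Sod2 and Glrx were called as well (0.70 and 0.57), and Gpx8 at -0.85 ± 0.26 (0.0217) and Gpx7 at -1.15 ± 0.38 (0.0344) were on the other side. For Nnt the difference was 0.02 ± 0.43 (adjusted p = 0.998). Without B80 the Sod3 value was 0.83 (adjusted p = 0.0148), below the 0.99 of Prdx5. A fit with the mouse as a block used limma voom in place of edgeR. In it 19 mouse codes, over both treatments together, link the tissues, among them B80, whose treatment labels differ between the tissues. This fit called 6 members higher and none lower, where 4.2% of all genes were called higher and 3.45% lower. In that fit Sod3 (1.02, adjusted p = 0.0677), Sod2 (0.67, 0.0579), Gpx8 (-0.91, 0.0619) and Gpx7 (-1.22, 0.101) were not called. The parts of the block and of the change of method were not tested apart. In edgeR without the block, only Prdx5, Prdx2 and Sod3 kept the call without any 1 of the 48 libraries. The number of members called fell to 4 without the heart library A80 and to 5 without the soleus library A4. On the FPKM scale, which was looked at after the data were seen and without a test, the soleus difference minus the heart difference was 0.56 for Prdx5, 0.62 for Sod3 and 0.16 for Prdx2, and turned to -0.13 for Prdx1 and -0.04 for Txn2.

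Among the mtDNA strains in non-exercised soleus, ND5 and ND6 differed: 6 members were called higher in ND5 and 4 lower, where 9.97% of all genes were called higher and 4.51% lower. The higher members were Txn1, Ucp2, Gpx7, Sod3, Gpx1 and Gpx8. Txn1, cytosolic thioredoxin, had 34.7, 47 and 62.5 CPM in ND5 soleus, against 28.8, 32.4 and 38.3 CPM in ND6 soleus, at 0.52 ± 0.13 (adjusted p = 0.00761). Ucp2 had 13.6, 31.4 and 43.3 CPM in ND5 soleus, against 8.19, 13.5 and 24.9 CPM in ND6 soleus, at 1.03 ± 0.27 (adjusted p = 0.00891). Both genes overlapped between the strains.

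Gpx7 had 1.52, 3.75 and 6.96 CPM in ND5 soleus, against 1.17, 1.54 and 2.31 CPM in ND6 soleus, at 1.29 ± 0.33 (adjusted p = 0.00902). Sod3 was at 0.45 ± 0.14 (0.0259), Gpx1 at 0.61 ± 0.19 (0.0307) and Gpx8 at 0.54 ± 0.19 (0.0461). The lower members were mitochondrial but for Sod1, which had 91, 93.6 and 99.6 CPM in ND5 soleus, against 92.3, 128.6 and 160.8 CPM in ND6 soleus (-0.41 ± 0.10, adjusted p = 0.00581). For Sod1 the ND6 libraries were split, with I62 and I85 at 92.3 and 103.3 CPM and the others at 125.1 to 160.8 CPM. I95, with 132.1 CPM in soleus, also had the highest Sod1 of non-exercised ND6 hearts, 240.0 CPM, where the next had 156.4 CPM. Prdx3 had 141.7, 154.4 and 182.1 CPM in ND5 soleus, against 180.2, 186.3 and 193.4 CPM in ND6 soleus (-0.25 ± 0.06, adjusted p = 0.00516).

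Glrx2 had 15.9, 16.4 and 20.6 CPM in ND5 soleus, against 19.7, 19.9 and 21.3 CPM in ND6 soleus (-0.24 ± 0.07, adjusted p = 0.013), and Txnrd2 was at -0.26 ± 0.08 (0.0237). The ranges of ND5 and ND6 overlapped in all of these. Nnt was not called, at -0.55 ± 0.24 (adjusted p = 0.117), though it was without B10 or B47. These calls depended on single libraries of both strains: 2 members were called without the ND5 library B70 and 16 without the ND5 library B10. Gpx1 and Gpx8, among others, were not called without the ND6 library I95 or without I18. Prdx3 and Sod1 kept their call without any 1 library, though the ND6 libraries were split for Sod1, as given above. On the FPKM scale 5 of the 6 higher members and none of the 4 lower ones were called, all 4 lying below 0, where 18.6% of all genes were called higher and 0.768% lower. Fibroblast markers (5 of 8) and macrophage markers (6 of 8) were higher in ND5 soleus than in ND6 soleus, and 4 of 5 red cell markers lower. The fibroblast sum was 1098, 2733 and 4825 CPM in ND5 soleus, against 448.1, 853.1 and 1126 CPM in ND6 soleus, and the macrophage sum 68, 112.1 and 176.5 CPM in ND5 soleus, against 18.9, 55.6 and 68.6 CPM in ND6 soleus. Their part in the result was not tested.

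Between ND5 and CO1, and between ND6 and CO1, no gene was called in non-exercised soleus (0% of all genes). In the ND5 comparison the members with the smallest p were Txnrd2 at -0.32 ± 0.08 (adjusted p = 0.0601) and Sod3 at 0.49 ± 0.14 (0.0653). Up to 11 members were called when 1 library was left out (11 without B10), a count given without its share over all genes. DESeq2 called 3 members, where it called 410 of all 13935 genes. Nnt was at -0.38 ± 0.24 (adjusted p = 0.366). In the ND6 comparison they were Sod1 at 0.34 ± 0.10 and Gclm at -0.18 ± 0.12 (adjusted p = 1 for both). Nnt was at 0.17 ± 0.24.

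In non-exercised heart, 4 members were called higher in ND5 than in CO1 and none lower, where 9.27% of all genes were called higher and 1.92% lower. Sod3 had 17, 25 and 288.8 CPM in ND5 heart, against 17.8, 18.8 and 22 CPM in CO1 heart (1.85 ± 0.44, adjusted p = 0.0123). Gpx1 had 46.7, 71 and 652.8 CPM in ND5 heart, against 34.8, 45.3 and 58.2 CPM in CO1 heart (1.85 ± 0.50, adjusted p = 0.0178). The top value of both is library B80, which had few heart muscle transcripts.

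Gpx8 had 11.7, 16.5 and 52.4 CPM in ND5 heart, against 10.5, 11.8 and 12.7 CPM in CO1 heart (0.92 ± 0.23, adjusted p = 0.0144). Prdx4 had 7.3, 12.2 and 32.3 CPM in ND5 heart, against 7.89, 9.04 and 11 CPM in CO1 heart (0.71 ± 0.24, adjusted p = 0.0477). Without B80 no member was called, and 5 genes were, against 1760 with it: Sod3 was at 0.40 (adjusted p = 0.427), Gpx1 at 0.61 (0.4), Gpx8 at 0.42 (0.226) and Prdx4 at 0.31 (0.41). All 8 fibroblast and matrix markers and 4 of 5 white adipocyte markers were higher in ND5 heart with B80 included. Nnt was at -0.58 ± 0.45 (adjusted p = 0.359) with B80 and -0.34 without it.

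Neither ND5 against ND6 nor ND6 against CO1 gave a called gene in heart (0% of all genes). The members with the smallest p were Sod3 at 1.29 ± 0.43 (adjusted p = 0.659) and Prdx2 at -0.21 ± 0.11 (0.774) between ND5 and ND6, and Gpx3 at 2.48 ± 0.82 (0.254) and Ucp2 at 1.49 ± 0.57 (0.268) between ND6 and CO1. Without B80 the difference between ND5 and ND6 turned to -0.13 for Sod3 and was -0.12 for Prdx2. Nnt was at -0.08 between ND5 and ND6 (0.18 without B80) and at -0.50 ± 0.45 between ND6 and CO1.

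The spread within groups was much larger in heart than in soleus for several members. Over the 48 heart libraries Gpx3 ranged from 108 to 2575 CPM, Ucp2 from 26.2 to 424 CPM and Nnt from 27 to 759 CPM, the highest being 23.8, 16.2 and 28.1 times the lowest. Within groups the standard deviation of log2 CPM was 1.43 for Gpx3, 1.01 for Ucp2, 0.91 for Nnt, 0.84 for Nqo1 and 0.79 for Gpx1, against 0.12 for Glrx2, 0.13 for Keap1 and 0.14 for Prdx1. Without B80 it was 1.44 for Gpx3, 1.0 for Ucp2, 0.74 for Nnt, 0.81 for Nqo1 and 0.64 for Gpx1. The summed level of the atrial markers Myl7, Myl4, Sln and Nppa ranged from 22.8 to 30239 CPM.

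In the libraries with the most atrial transcripts Gpx3 and Ucp2 were high and Nnt low. The ND6 non-exercised heart of I53 had 30239 CPM of atrial markers, 2575 CPM of Gpx3, 354.7 CPM of Ucp2 and 115.0 CPM of Nnt. The ND6 exercised heart of I4 had 26229, 1965, 251.5 and 134.3 CPM of the same, and the ND5 exercised heart of B71 had 24815, 2193, 292.5 and 167.7 CPM. The ANT1 exercised heart of A71 had 24250, 1525, 133.5 and 259.7 CPM, and that of A17 had 21671, 2316, 304.5 and 175.6 CPM. The relation was loose for Ucp2: B80, with 2468 CPM of atrial markers, had 209.1 CPM of Ucp2, more than A71. At the other end, the ND5 non-exercised heart of B70 had 22.8 CPM of atrial markers, 108.0 CPM of Gpx3, 54.3 CPM of Ucp2 and 718.1 CPM of Nnt. The ND6 non-exercised heart of I95 had 29.1, 154.0, 30.8 and 640.0 CPM of the same.

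The atrial sums of non-exercised hearts were 60.7 to 18308 CPM in ANT1, 22.8 to 15034 CPM in ND5, 29.1 to 30239 CPM in ND6 and 61.4 to 572.8 CPM in CO1. Nnt in heart was 175.6, 413.2 and 738.6 CPM in exercised ANT1 mice, 167.7, 415.1 and 569.6 CPM in ND5, 134.3, 284.2 and 346.6 CPM in ND6 and 440.3, 570.0 and 626.2 CPM in CO1. In non-exercised mice it was 282.7, 561.4 and 758.7 CPM in ANT1, 27, 430.6 and 718.1 CPM in ND5 (27 in B80), 115.0, 458.6 and 640.0 CPM in ND6 and 475.0, 582.8 and 667.8 CPM in CO1. Within each treatment the heart groups overlapped, except that all exercised ND6 hearts lay below all exercised CO1 hearts. The part of atrial tissue in these levels was not tested beyond the covariate above.

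**Figure D5:**
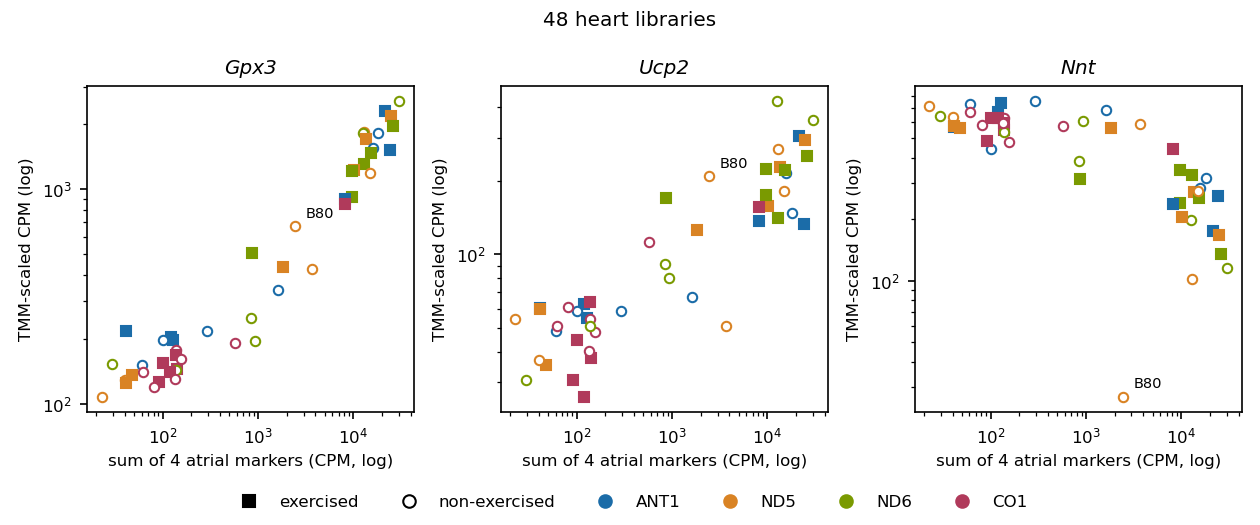
CPM of Gpx3, Ucp2 and Nnt in each of the 48 heart libraries (log y axis) against the summed CPM of 4 atrial markers (log x axis), with the library B80 marked. Gpx3 and Ucp2 are highest (up to 2575 and 424 CPM) and Nnt is low in the libraries at the right, while B80 has the lowest Nnt, 27 CPM.

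No member passed the test for training. In no strain, in neither tissue, was any gene called between exercised and non-exercised mice: the share of genes called was 0% in soleus of ANT1, ND5, ND6 and CO1 mice, 0% in heart of the same strains, 0% for the mean of the 4 strains in either tissue, and 0% for a difference in training effect between strains in either tissue. At an unadjusted p under 0.05, edgeR had 536 genes, 3 of them members, for the mean in soleus and 538 genes, 1 of them a member, for the mean in heart. DESeq2 called 1 member and 51 genes for training in ND5 soleus.

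The smallest p among the members were those of Prdx2 (0.08 ± 0.03, adjusted p = 0.961) and Prdx3 (0.07 ± 0.03) for the mean in soleus, and of Hmox1 (0.34 ± 0.13, adjusted p = 0.992) and Glrx (0.15 ± 0.08) for the mean in heart. Within strains they were Txnrd2 (0.30 ± 0.08, adjusted p = 0.113) and Prdx3 (0.22 ± 0.06, 0.116) in ND5 soleus. Hmox1 (0.83 ± 0.29) and Gclm (0.32 ± 0.12, adjusted p = 0.954 for both) led in ND6 soleus. In ANT1 soleus Prdx2 (0.10 ± 0.06) and Gpx8 (0.30 ± 0.22) and in CO1 soleus Prdx2 (0.11 ± 0.06) and Txnrd2 (-0.12 ± 0.08) had an adjusted p of 1.

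In heart they were Keap1 (0.11 ± 0.08) and Glrx (0.20 ± 0.16) in ANT1, Sod3 (-1.41 ± 0.43, adjusted p = 0.411; 0.01 without B80) and Hmox1 (0.65 ± 0.26, 0.732; 0.76 without B80) in ND5, Nfe2l2 (-0.26 ± 0.12) and Hmox1 (0.48 ± 0.26) in ND6 with an adjusted p of 0.871, and Nfe2l2 (-0.16 ± 0.12) and Glrx (0.17 ± 0.16) in CO1. For the difference in training effect between strains the members with the smallest p were Txnrd2 (adjusted p = 0.508) and Prdx3 (0.631) in soleus and Sod3 (0.825) in heart. Nnt differed by 0.03 ± 0.12 for the mean in soleus and by -0.24 ± 0.23 in heart (-0.31 without B80), with 0.25 ± 0.24 in ANT1 soleus, 0.32 ± 0.24 in ND5 soleus, -0.45 ± 0.24 in ND6 soleus and 0.01 ± 0.24 in CO1 soleus.

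Exercised mice were labelled responders or non-responders by their change in exercise capacity, 3 of each per strain in soleus. No gene was called between them (0% of all 13843 genes tested), with 622 genes, 3 of them members, at an unadjusted p under 0.05. Srxn1 was at 0.47 ± 0.18 (adjusted p = 0.954), Txnrd1 at 0.25 ± 0.11, Msra at 0.12 ± 0.05 and Nnt at -0.02 ± 0.15. The ND5 responder B69 had the highest soleus levels of Srxn1 and Txnrd1, at 252.7 and 163.0 CPM. The next ND5 library of exercised soleus, B11, had 83.8 and 106.8 CPM. Values of the comparison without B69 are not given here.

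Between tissues, 8 members were called higher in non-exercised soleus than in heart and 15 lower, where 37.7% of all 16172 genes were called higher and 42.7% lower. The members' median was -0.09, against -0.06 over all genes. Higher in soleus were Keap1 (0.49 ± 0.04, adjusted p = 4.25e-19), Glrx5 (0.68 ± 0.07, 1.09e-14), Txn2 (0.49 ± 0.05, 3.91e-14), Srxn1 (1.04 ± 0.14, 1.64e-10), Txnrd1 (0.56) and Glrx2 (0.24). Lower in soleus were Prdx4 (-1.18 ± 0.11, 3.75e-17), Ucp2 (-2.40 ± 0.24, 1.05e-15), Gpx3 (-2.94 ± 0.31, 1.48e-14), Txnrd2 (-0.85 ± 0.10, 4.79e-13), Gclm (-0.75 ± 0.09, 2.15e-12) and Msra (-0.54 ± 0.07, 4.89e-11).

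Parts of 1 pathway were thus on both sides: Txn2 was higher in soleus and its reductase Txnrd2 lower, and Gclc was higher (0.39) and its partner Gclm lower. By class, 3 mitochondrial members were higher and 3 lower of 8, 3 cytosolic members higher and 4 lower of 11, and 3 of 4 members of the endoplasmic reticulum and both secreted enzymes were lower. Nnt did not pass, at -0.10 ± 0.19 (adjusted p = 0.619). Of the 23 calls 21 held without any 1 library, Prdx2 being lost without B5 and Sod1 without I62 or I95. Tissue and library batch cannot be told apart in this comparison.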

How the data were processed

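Per the labels' protocols, mRNA of mouse soleus and heart was selected with oligo(dT) and sequenced from both ends after preparation with the NEBNext Ultra II kit. The authors deposited expected counts (estimates that can hold fractions of a read) and FPKM for each gene. STAR 2.5.2b, RSEM 1.2.28 and the build mm10 are named in the submitters' processing notes, and the use of strand is not stated, so overlapping and antisense genes and near-identical copies are uncertain. Columns were tied to samples by mouse code, which placed 96 of the 120 labelled samples. The 24 columns left over, 12 per tissue, matched no sample. They were left out, and with them the control strain.

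Expected counts were rounded, filtered with filterByExpr (13935 genes left in soleus, 15723 in heart, 13843 in the responder comparison and 16172 over both tissues), scaled by TMM and fitted with edgeR 4.0.16 in R 4.3.3, each tissue in a fit of its group means. The edgeR test of ANT1 against the mtDNA strains in non-exercised mice of each tissue was checked on simulated counts. These had the same dispersion for all genes and no shift of the mtDNA share, so the check does not cover those features or the other fits. Alternatives were DESeq2 1.42.0, RLE factors, leaving out mtDNA-encoded genes, no filter, the deposited FPKM as log2(FPKM + 0.1) with limma 3.58.1, atrial markers as a covariate in heart, and leaving out each library. FPKM of the other gene lists, and the spread and single members in heart without B80, were looked at after the data were seen. Within a tissue each library has its own mouse code. Between tissues 19 codes are shared, 1 of them, B80, with treatment labels that differ, and they pair the tissues by code. A limma voom fit with the mouse as a block was therefore an alternative there. Strain and treatment groups share no replicate numbers. In each comparison up to 6 called members in each direction with the smallest p were to be named, or the 2 with the smallest p where none was called, with Slc25a4 and Nnt always, and up to 3 genes in each direction of the other lists. The members and lists were chosen with earlier results of these data known.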

Additional observations from a re-analysis of the deposited data

Results flagged for a closer look

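In 10 members the ANT1 difference, in log2, was not the same in non-exercised soleus as in non-exercised heart by a test of the difference itself (edgeR's quasi-likelihood test with Benjamini-Hochberg adjustment). The soleus difference minus the heart difference was 1.32 for Sod3, 0.95 for Prdx5, 0.70 for Sod2, 0.57 for Glrx, 0.50 for Glrx5, 0.47 for Prdx2, 0.36 for Txn2 and 0.29 for Prdx1. It was -0.85 for Gpx8 and -1.15 for Gpx7. The values are relative to the typical gene of each tissue, and on the FPKM scale, without a test, those of Prdx1 and Txn2 turned to -0.13 and -0.04. Without the heart library B80 the Sod3 value was 0.83. In a limma voom fit with the mouse as a block Sod3, Sod2, Gpx8 and Gpx7 were not called (adjusted p = 0.0677, 0.0579, 0.0619 and 0.101).

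Single libraries stood far from the others of their group in 4 of the 61 groups of values examined, and chance alone flags about 1 in 20 groups. In 3 of them the library was the non-exercised ND5 heart of mouse B80. Its Sod3 level was 289 CPM, where the next library had 44.2 CPM, its Gpx1 level was 653 CPM, where the next had 127 CPM, and its Gpx8 level was 52.4 CPM, where the next had 21.9 CPM. The gaps took up 0.9, 0.868 and 0.749 of the range of the group, beyond the critical value of 0.625 for 6 samples. The same library had the lowest Nnt of all hearts, 27 CPM, and the lowest share of mtDNA transcripts, 9.23%. In soleus, the non-exercised ND5 library of B10 had 20.6 CPM of Glrx2, where the next had 17.4 CPM (0.681 of the range). The 61 groups did not take in every member in every group, so this list is not complete. Sod1 in exercised ND6 heart was 236.7 CPM in I4, where the next library had 127.2 CPM. In non-exercised ND6 heart Sod1 was 240.0 CPM in I95, where the next library had 156.4 CPM. Srxn1 in exercised ND5 soleus was 252.7 CPM in B69, where the next library had 83.8 CPM.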

How the results depend on the processing

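The scale decided the direction of several soleus values of ANT1 mice. On the deposited FPKM with limma, log2 differences of called members changed sign. In non-exercised soleus these were Sod1 (-0.40), Prdx1 (-0.35), Glrx (-0.25), Msra (-0.24), Gpx1 (-0.15), Txn2 (-0.15), Txnrd2 (-0.13), Gpx4 (-0.11) and Prdx3 (-0.07). In exercised soleus they were Sod1, Prdx1 and Msra (-0.29 each), Txnrd2 (-0.23), Prdx3 (-0.10), Gpx4 and Prdx4 (-0.08 each), Nnt (-0.07), Txn2 (-0.05) and Prdx6 (-0.01). The median of all genes moved by the amounts given in the report, and all of these members lay above it. No other alternative turned a called value. The split of calls turned with it: 3 members were called higher and 19 lower in non-exercised soleus (15 and 4 on counts), and 2 and 21 in exercised soleus (15 and 7 on counts). Over all genes FPKM called 354 higher and 11226 lower in non-exercised soleus, and 384 and 10426 in exercised soleus.

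Counts of called members moved by more than 1.5 times as follows, and the cause was not tested. FPKM called 6 members between ND5 and ND6 in soleus (10 on counts), 2 for ANT1 in non-exercised heart, Txn1 and Keap1, both lower, with Prdx2, the 1 member called on counts, lost (0.10, adjusted p = 0.39), and 0 between ND5 and CO1 in heart (4 on counts). With the atrial covariate 3 and 5 were called for ANT1 in non-exercised and exercised heart (1 each without it), and 0 between ND5 and CO1 in heart. Without a filter on low counts 0 were called for ANT1 in non-exercised heart, and 4 for the difference between tissues (10 with it). DESeq2 called 3 between ND5 and CO1 in soleus and 1 for training in ND5 soleus (0 for both in edgeR), where it called 410 and 51 of all 13935 genes. The limma voom fit with the replicate block by mouse, with 19 mouse codes in both tissues and a consensus correlation of 0.0376, left 6 members for the difference between tissues (Prdx5, Prdx1, Prdx2, Glrx, Txn2 and Glrx5). It changed no other count by that much.

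Leaving out each library in turn gave 2 (without B70) to 16 (without B10) members between ND5 and ND6 in soleus, 0 to 11 (without B10) between ND5 and CO1 in soleus, 0 to 3 (without B9) for training in ND5 soleus, and 0 (without A72, A23 or A70) to 1 for ANT1 in non-exercised heart. It gave 1 to 2 (without A17) for ANT1 in exercised heart, 0 (without B80) to 8 (without B70) between ND5 and CO1 in heart and 4 (without A80) to 12 (without B80) for the difference between tissues. For ANT1 in soleus it gave 19 to 20 members in non-exercised and 19 to 23 in exercised mice. Counts over all genes moved likewise: for ANT1 in non-exercised heart 144 genes were called on counts, 666 with the atrial covariate and 1333 on FPKM, and in exercised heart 751, 1407 and 1798.

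The low counts of Gpx7 and Prdx4 in soleus, and the spread of Gpx3, Ucp2 and Nnt in heart, limit the precision of their values. Differences of these members that did not pass are not shown to be absent. The smallest number of libraries, 3 per strain and response class, stands behind the responder comparison.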

Other observations

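Glrx2 was the mitochondrial member whose value depended most on the scale once the shift of all genes was taken off. On TMM-scaled counts it differed by 0.05 between non-exercised ANT1 soleus and the mtDNA strains, while on the deposited FPKM it lay 0.36 above the median of all genes. For Prdx5, Prdx3 and Txn2 the corresponding pairs were 1.19 and 1.22, 0.58 and 0.58, and 0.50 and 0.50.

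In heart the ratios of mitochondrial to cytosolic members, in FPKM, overlapped widely between non-exercised ANT1 mice and the mtDNA strains. Sod2 over Sod1 was 0.266, 0.373 and 0.411 (lowest, median, highest) in ANT1 heart, against 0.108, 0.372 and 0.452 in the mtDNA strains. Prdx5 over Prdx3, which was free of overlap in soleus, was 1.27, 1.34 and 1.38 in ANT1 heart, against 1.08, 1.2 and 1.38 in the mtDNA strains. Txnrd2 over Txnrd1 was 0.68, 0.955 and 1.44 in ANT1 heart, against 0.448, 0.891 and 1.38 in the mtDNA strains.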
